A study of Mus musculus with 6 samples.

Results

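The 9 genes described here encode forkhead transcription factors that are active in the developing palate and face: Foxe1, Foxf1, Foxf2, Foxc1, Foxc2, Foxd1, Foxd2, Foxl1 and Foxl2. They are 9 of the 53801 genes in the count files, and all 9 passed the filter on low counts. They were chosen by name, with the results of the comparison of WT and Dlx2-overexpressing embryos already known. Their fold changes and adjusted p-values below therefore describe where each gene stood in the fit across all genes, and they support nothing further about the set.

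RNA was sequenced from maxillary prominences, the facial swellings that form the upper jaw and the palatal shelves, of mouse embryos at embryonic day 12.5. The first group was 3 WT samples. The second was 3 wnt1cre; Rosa26Dlx2/- samples, here called Dlx2OE, in which a CAG-driven, Flag-tagged Dlx2 cassette at the Rosa26 locus was switched on by Cre under the Wnt1 promoter. The authors describe this overexpression as specific to cells derived from the neural crest, which the counts do not show. They give C57BL/6J for the line carrying the cassette and for the purchased WT mice, and no strain for the wnt1cre line. The 3 RNA samples of each genotype were independent preparations. The littermates that gave the tissue number 6 in the methods and 7 in the labels, and whether a sample is 1 embryo is not stated.

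Forkhead factors bind DNA through a winged-helix domain, the forkhead box, and many act in early patterning of mesenchyme. In the palate, Foxf1 and Foxf2 are expressed in neural crest-derived mesenchyme under the oral epithelium and respond to Hedgehog ligand made by that epithelium. Foxe1 is known from oral and thyroid epithelium, and loss of Foxe1 or Foxf2 in mice is known to cause cleft palate.

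Members of a subfamily share long stretches of their forkhead box, so the coding sequences of the pairs were compared to see whether reads could be told apart. The windows for Foxf1 and Foxf2, which were both called lower, are shown in coding orientation, with the bases that differ within the pair in capitals. Both windows include the codons of the recognition helix, the part of the domain that reads the DNA. On GRCm38, the Foxf1 window is chr8:121084633-121084722 and the Foxf2 window chr13:31626470-31626559, both on the plus strand and within 1 coding exon.
Foxf1: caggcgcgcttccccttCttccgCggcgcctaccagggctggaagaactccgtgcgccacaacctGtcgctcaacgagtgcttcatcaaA
Foxf2: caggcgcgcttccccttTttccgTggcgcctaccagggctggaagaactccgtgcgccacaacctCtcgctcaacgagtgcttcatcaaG

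Within these 90 bases, Foxf1 and Foxf2 differed at 4 positions. Over the aligned coding sequence, identity was 74.0% for Foxf1 and Foxf2, 85.2% for Foxc1 and Foxc2, and 77.2% for Foxd1 and Foxd2. The longest run of identical bases between the transcripts of these pairs was 53 bases, in Foxc1 and Foxc2, which is shorter than the 150-base reads.

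The genes lie in few places in the genome. Foxf1, Foxc2 and Foxl1 lie in a row on chromosome 8, with 28026 bp between Foxf1 and Foxc2 and 9044 bp between Foxc2 and Foxl1. Foxf2 and Foxc1 lie 175229 bp apart on chromosome 13. On GRCm38 the genes span chr4:46343609-46346412 (Foxe1), chr8:121084386-121088144 (Foxf1), chr13:31625816-31631403 (Foxf2), chr13:31806633-31812476 (Foxc1), chr8:121116171-121118895 (Foxc2), chr13:98354242-98359305 (Foxd1), chr4:114906282-114908873 (Foxd2, minus strand), chr8:121127940-121130644 (Foxl1) and chr9:98955288-98958543 (Foxl2). Foxf1 and Foxf2 have 2 exons in GENCODE M21, and the other 7 genes have a single exon.

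Total counts on genes were 26155500 to 31308813 per sample. Dlx2 was higher in Dlx2OE, at 41.0 ± 5.32 CPM in WT and 124 ± 5.96 in Dlx2OE (mean ± SD, n = 3, CPM, counts scaled to the library size by the TMM method), a log2 fold change of 1.60 with an adjusted p of 0.00241 by edgeR's quasi-likelihood test. The counts do not separate the transgene from endogenous Dlx2. The 12 maxillary mesenchyme markers were all above the floor of 3 counts, and summed to 1718 to 2098 CPM in WT and 2248 to 2774 CPM in Dlx2OE. Libraries within a group differed. WT sample 2 was the lowest of the WT samples for 7 of the 9 forkhead genes. Of the Dlx2OE samples, sample 1 was the lowest for 7 of the 9 genes and sample 3 the highest for 7. Dlx2OE sample 1 also had the most Krt5, a keratin of stratified epithelium, at 538 CPM against 121 and 147 CPM in Dlx2OE samples 2 and 3. Dlx2OE sample 3 had the largest share of reads on no gene, 14.7% against 5.03% to 5.43% in WT, and the highest summed neuron markers.

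In WT, levels per length of exon ran from 35.8 ± 10 CPM per kb for Foxf2 to 6.30 ± 2.37 for Foxl2. Foxf1 followed Foxf2 at 21.7 ± 2.83 CPM per kb and Foxe1 was next at 14.3 ± 2.42. The WT samples of Foxf2 and Foxf1 did not overlap, nor did those of Foxf1 and Foxe1. Below Foxe1 came Foxd1 (10.2 CPM per kb), Foxc1 (9.71), Foxl1 (9.61), Foxc2 (8.94), Foxd2 (8.02) and Foxl2, and each neighbouring pair in this order overlapped. In WT, 92.3% of the tested genes had a lower level per length than Foxf2, and 60.0% had a lower one than Foxl2. In Dlx2OE, Foxl2 had the highest mean of the 9, at 13.8 ± 0.725 CPM per kb. Foxf2 was next at 12.1 ± 6.10 CPM per kb, and its range of 6.17 to 18.4 took in that of Foxl2, 13.1 to 14.6.

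**Figure D1:**
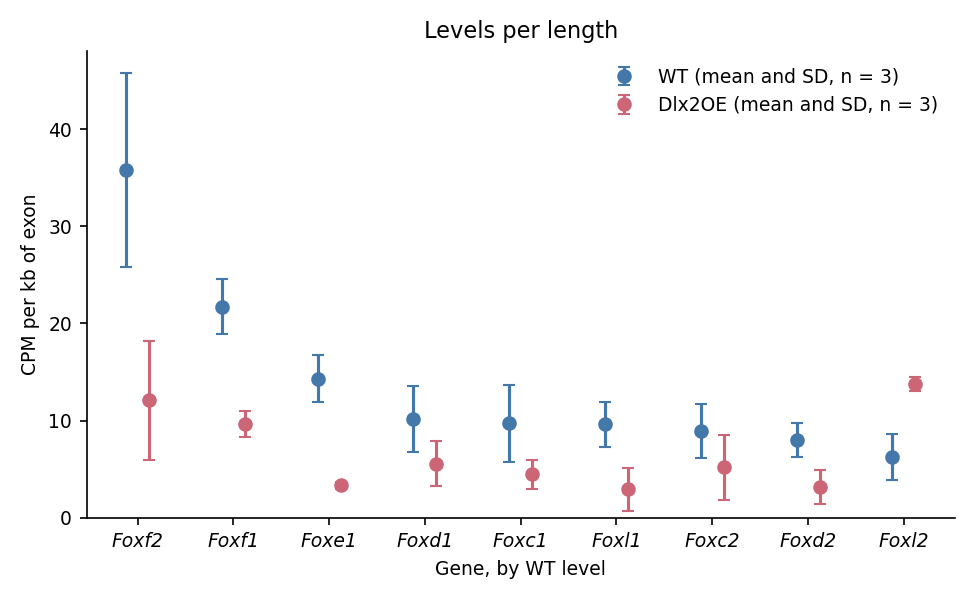
Mean level per length (CPM per kb of exon, vertical axis) of the 9 forkhead genes, ordered by WT level, with the SD over 3 samples as error bars. Foxf2 was highest in WT at 35.8 CPM per kb and Foxl2 lowest at 6.30, and Foxl2 was the gene with a higher mean in Dlx2OE.

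Of the 9 genes, 3 were called lower in Dlx2OE (Foxe1, Foxf1 and Foxf2) and 1 higher (Foxl2), by the thresholds of 0.05 for the adjusted p and 1 for the size of the log2 fold change. Over all 17514 genes tested, 1.62% were called lower and 1.50% higher. At the adjusted p alone, 6.45% of all genes passed, 3.46% lower and 2.99% higher. The samples of WT and Dlx2OE did not overlap in CPM for 7 of the 9 genes, 6 lower and 1 higher, where 17.3% of all tested genes were lower without overlap and 16.7% higher. The median log2 fold change of the 9 genes was -1.17, and that of all tested genes was 0.00275. Without Dlx2OE sample 1, Foxe1, Foxf1, Foxf2 and Foxl1 were called lower and Foxl2 higher, and without WT sample 2, Foxe1 alone was called. Because the genes were chosen with these values known, nothing is read from the counts. In tissue samples, fewer cells of a type and less RNA per cell cannot be told apart.

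**Figure D2:**
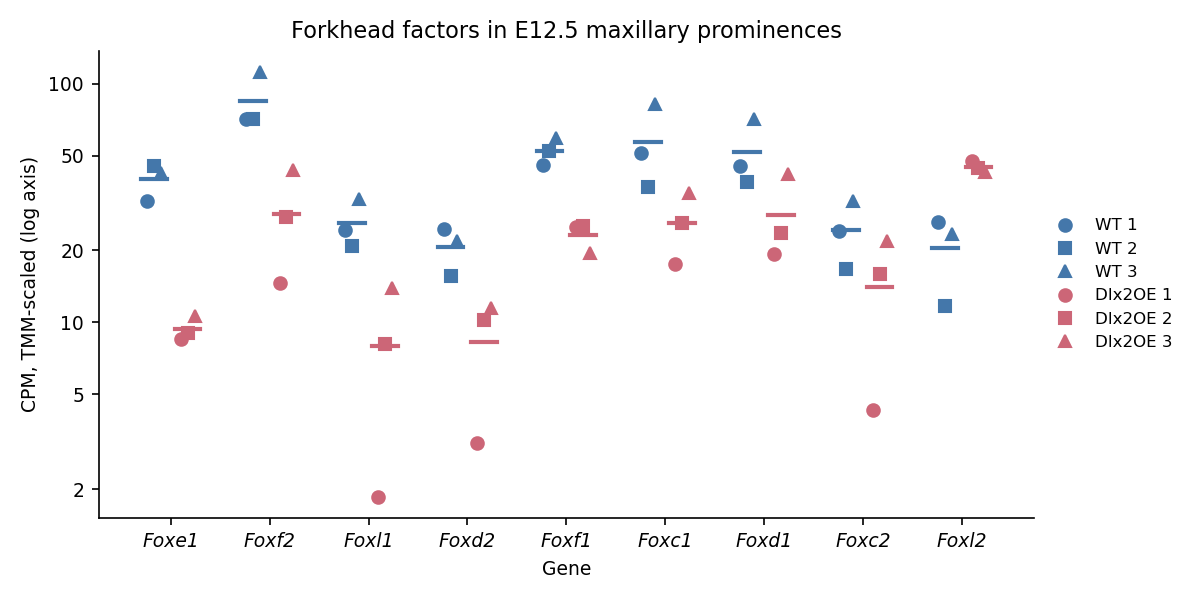
Level of each forkhead gene in each of the 6 samples, as TMM-scaled CPM on a log axis, with WT in blue, Dlx2OE in red, sample number by symbol and group means as bars. Foxe1, Foxf1, Foxf2, Foxc1, Foxd2 and Foxl1 were lower in every Dlx2OE sample than in any WT sample, Foxl2 was higher, and Foxc2 and Foxd1 overlapped.

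Foxe1, the epithelial factor of the set, had the largest fold change of the 9. It was at 32.4, 45.4 and 42.1 CPM in WT samples 1 to 3 and at 8.54, 8.98 and 10.6 CPM in Dlx2OE samples 1 to 3. The groups were far apart and the Dlx2OE samples were close together. The mean fell from 40.0 ± 6.79 to 9.37 ± 1.08 CPM (SD, n = 3), which left 23.4% of the WT level on the fitted scale, and the log2 fold change was -2.09 with a standard error of 0.166 and an adjusted p of 0.00314 (edgeR). It stood eighth by p among all genes tested. It was the member that passed in each of the 6 fits that left out 1 sample, where the log2 fold change ran from -2.23 to -2.0.

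Markers of surface and oral epithelium, where Foxe1 is known to be expressed, also differed between samples. The 12 markers were all above the floor, and their summed level was 862 to 1539 CPM in WT and 659 to 2049 in Dlx2OE, where sample 1 was highest. Of the 12, 8 were lower and 4 higher in Dlx2OE. Where 6.45% of all genes passed the adjusted p, 2 of the 12 did. These were the simple-epithelium keratins Krt8 (log2 fold change -2.11, adjusted p 0.00939 by edgeR) and Krt18 (-1.85, 0.0233), both lower. The log2 fold change of Foxe1 was -2.09. The ratio of Foxe1 to the geometric mean of these markers, a measure chosen after the values were seen, was 0.487, 0.382 and 0.473 in WT and 0.0745, 0.191 and 0.233 in Dlx2OE. The groups did not overlap on this scale either, but the markers in the list did not move together. In Dlx2OE sample 1, where the ratio was lowest, Krt5 was at 538 CPM and Krt14 at 490 CPM. Krt8 was at 26.3 CPM there, against 71.4 to 142 CPM in WT. Which of these epithelial cells expressed Foxe1 was not tested, so the ratio does not set Foxe1 against its own cells.

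Foxf1 and Foxf2, the Hedgehog-responsive factors of palatal mesenchyme, both fell. Foxf1 was at 45.8, 52.2 and 59.4 CPM in WT and at 25.2, 25.3 and 19.5 CPM in Dlx2OE. Its samples were tight within both groups and the groups did not overlap. The mean was 52.5 ± 6.83 CPM in WT and 23.3 ± 3.32 in Dlx2OE, a log2 fold change of -1.17 ± 0.146 (standard error), with an adjusted p of 0.0101 by edgeR. Without WT sample 2 the adjusted p was 0.0580, and it was under 0.05 in the other 5 leave-one-out fits.

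Foxf2 was at 71.0, 70.9 and 112 CPM in WT and at 14.6, 27.7 and 43.4 CPM in Dlx2OE. The groups did not overlap, but both were spread, by 2.98-fold between the highest and lowest Dlx2OE samples. The mean was 84.7 ± 23.7 CPM in WT and 28.6 ± 14.4 in Dlx2OE, a log2 fold change of -1.57 ± 0.366 (standard error), with an adjusted p of 0.0454 by edgeR. This call was lost without WT sample 1 (adjusted p 0.102), WT sample 2 (0.133), WT sample 3 (0.0768) or Dlx2OE sample 2 (0.130), and also after correction for GC content and length (0.0658). The log2 fold change stayed between -2.0 and -1.26 in every setting.

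Foxc1 and Foxc2, paralogous factors of head mesenchyme, eye and vessels, did not pass the edgeR test, though Foxc1 passed in other settings. Foxc1 was at 51.4, 36.9 and 82.0 CPM in WT and 17.6, 26.0 and 34.7 CPM in Dlx2OE. The groups did not overlap, though the lowest WT sample was close to the highest Dlx2OE sample. The log2 fold change was -1.12 ± 0.325 (standard error), with an adjusted p of 0.0742 by edgeR. Foxc1 passed with DESeq2 (adjusted p 0.0015) and with no filter on low counts (0.00725). It also passed with a replicate block (0.0439), though the replicate numbers did not pair the samples. Foxc2 was at 24.1, 16.8 and 32.2 CPM in WT and 4.29, 16.0 and 22.0 CPM in Dlx2OE. Dlx2OE sample 1 was far below the others and sample 3 lay within the WT range. The log2 fold change of Foxc2 was -0.79 with a standard error of 0.508 (adjusted p 0.328), the smallest of the 9 in size, and was -0.37 without Dlx2OE sample 1.

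Foxd1 and Foxd2, which mark mesenchyme of the developing face and kidney, did not pass the edgeR test either, though both passed in other settings. Foxd1 was at 45.4, 38.8 and 71.2 CPM in WT and 19.4, 23.6 and 41.7 CPM in Dlx2OE. Dlx2OE sample 3 lay above WT sample 2, so the groups overlapped, and the log2 fold change was -0.88 ± 0.318 (standard error), with an adjusted p of 0.12 by edgeR. Foxd1 passed the adjusted p with DESeq2 (0.0167) and with no filter (0.0269). It also passed with a replicate block (0.0322), though the replicate numbers did not pair the samples. Foxd2 was at 24.7, 15.7 and 21.9 CPM in WT and 3.11, 10.2 and 11.5 CPM in Dlx2OE. Its groups did not overlap, and Dlx2OE sample 1 was again far below the others. The log2 fold change of Foxd2 was -1.33 ± 0.430 (standard error), with an adjusted p of 0.0933, and without Dlx2OE sample 1 it was -0.95 with an adjusted p of 0.0330. Foxd2 also passed with DESeq2 (0.003) and with no filter (0.0164).

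Foxl1, a factor of mesenchyme next to epithelium that is best known from the gut, was at 24.3, 20.8 and 32.9 CPM in WT and 1.86, 8.09 and 13.9 CPM in Dlx2OE. The groups did not overlap, and the 7.48-fold span between the Dlx2OE samples was the widest of the 9 genes. The log2 fold change was -1.71 ± 0.574 (standard error), with an adjusted p of 0.101 by edgeR. Without Dlx2OE sample 1 it was -1.25 with an adjusted p of 0.0303. Unfiltered, Foxl1 passed as well (0.0145).

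Foxl2, known for its part in the ovary and the eyelid, was the gene that rose. It was at 26.3, 11.7 and 23.5 CPM in WT and at 47.4, 44.5 and 42.7 CPM in Dlx2OE. Every Dlx2OE sample was above every WT sample, and the spread was in WT, where sample 2 was low. The mean was 20.5 ± 7.73 CPM in WT and 44.9 ± 2.36 in Dlx2OE, a log2 fold change of 1.13 ± 0.264 (standard error), with an adjusted p of 0.0456 by edgeR. The call was lost in 5 of the 6 leave-one-out fits, with adjusted p-values up to 0.119 without Dlx2OE sample 2, and after GC and length correction (0.0629). Without Dlx2OE sample 1 the adjusted p was 0.0495. The log2 fold change ran from 0.84, without WT sample 2, to 1.34.

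Markers of periocular mesenchyme, the tissue around the eye where Foxl2 is known to be expressed, were examined beside it. All 6 were tested and summed to 426 to 564 CPM in WT and 353 to 526 in Dlx2OE. Six2 made up a large part of this sum, at 240 to 284 CPM in WT and 113 to 141 in Dlx2OE. The geometric mean of CPM plus 1 over the 6 was 36.1 to 45.4 in WT and 44 to 67.1 in Dlx2OE. In the edgeR fit, 3 of the 6 passed the adjusted p, where 6.45% of all genes passed. Lmx1b (log2 fold change 4.05, adjusted p 0.0160) and Tfap2b (1.58, 0.0464) were higher and Six2 (-1.08, 0.00802) was lower. Their part in the level of Foxl2 was not tested.

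Dlx2OE sample 1, lowest for 7 of the 9 genes, was also lowest in summed markers of endothelium (217 CPM against 297 to 458 in the other 5 samples), pericytes and smooth muscle (178 against 215 to 266), skeletal muscle (69.6 against 92.3 to 230), glia (93.2 against 141 to 316) and macrophages (32.3 against 43.9 to 66.1). Erythroid markers summed to 3177 to 4125 CPM in WT and 1842 to 2415 in Dlx2OE. Neuron markers summed to 61.3 to 295 CPM in WT and 186 to 889 in Dlx2OE, highest in sample 3. Mandibular and arch markers summed to 9.19 to 20.3 CPM and lens and retina markers to 18.6 to 51.5 CPM over the 6 samples. The part of these cell types in the forkhead levels was not tested. A ratio to the geometric mean of the maxillary mesenchyme markers was added after the values were seen. For Foxf1 it was 0.490, 0.630 and 0.627 in WT and 0.213, 0.205 and 0.191 in Dlx2OE. The mean of the markers itself was higher in every Dlx2OE sample. Of the 12 markers, 3 passed the adjusted p, all higher, where 6.45% of all genes passed. Because Foxf1 was lower in every Dlx2OE sample, the ratio had to separate the groups, and nothing is read from it.

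**Figure D3:**
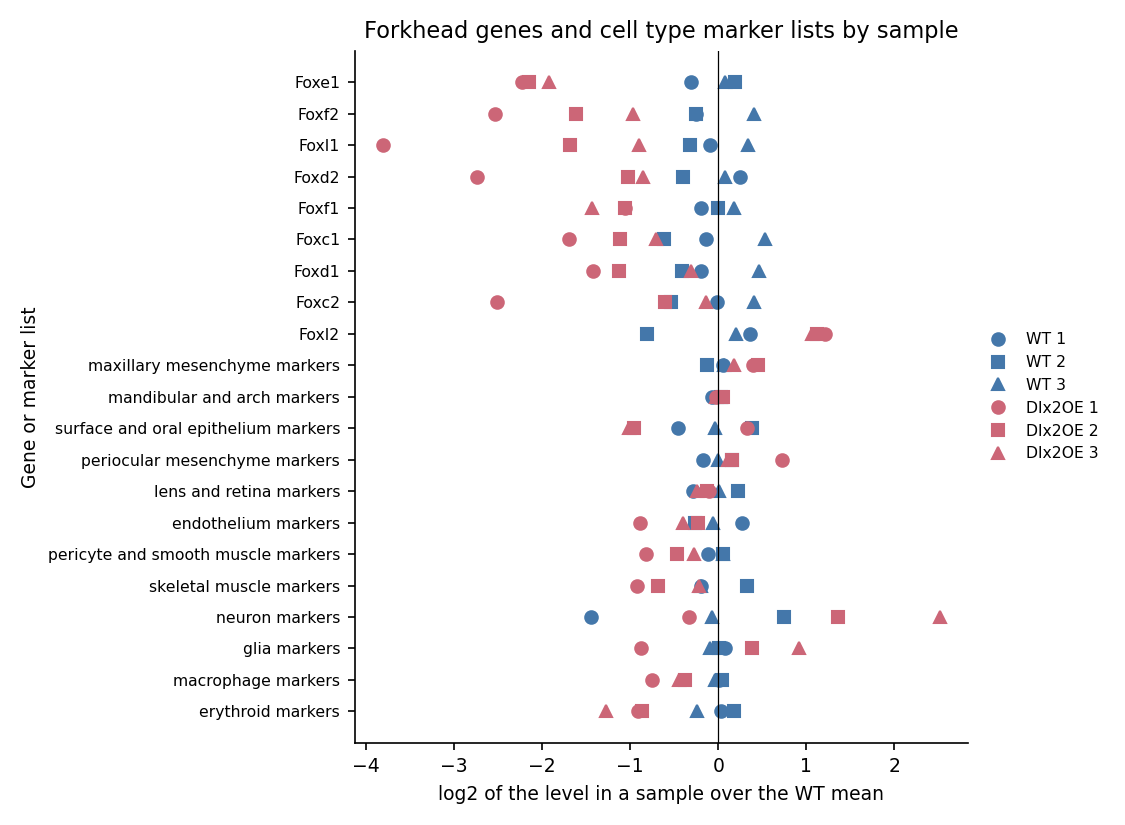
Each sample's level over the WT mean, as log2 (horizontal axis), for the 9 forkhead genes (CPM) and 12 cell type marker lists (geometric mean of CPM plus 1), with WT in blue and Dlx2OE in red. Foxe1 in Dlx2OE sat between -2.23 and -1.92, Dlx2OE sample 1 was lowest for Foxl1 at -3.81, and the maxillary mesenchyme markers sat at 0.179 to 0.449 in Dlx2OE.

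The transcripts next to the forkhead genes were then examined. Within 100 kb of the 9 genes, 20 other annotated genes were tested, and 3 passed the adjusted p, all lower: Gm12446, Foxq1 and Gmds. Of all genes, 6.45% passed. Gm12446 is an antisense transcript that overlaps Foxe1. It was at 6.46, 6.87 and 4.78 CPM in WT and 0.743, 1.05 and 0.886 CPM in Dlx2OE, a log2 fold change of -2.75 (adjusted p 0.00499 by edgeR). The strand setting of the counting is not given in the sources used here and the kit does not mark strand, so reads from Foxe1 and Gm12446 cannot be told apart where they overlap, which is 3.64% of the Foxe1 exon. Gmds, a GDP-mannose dehydratase gene that ends 7102 bp from Foxc1, fell with a log2 fold change of -0.65 (adjusted p 0.0360). It passed in 1 of the 6 leave-one-out fits, without Dlx2OE sample 1, and its adjusted p was up to 0.141 in the others.

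Foxf2 shares its start region with 1700018A04Rik, a non-coding transcript on the other strand. The 250 bases upstream of Foxf2 are shown with the 23 bases between the annotated starts in capitals, on the plus strand at chr13:31625566-31625815 (RefSeq, GRCm38.p6).
Foxf2 upstream: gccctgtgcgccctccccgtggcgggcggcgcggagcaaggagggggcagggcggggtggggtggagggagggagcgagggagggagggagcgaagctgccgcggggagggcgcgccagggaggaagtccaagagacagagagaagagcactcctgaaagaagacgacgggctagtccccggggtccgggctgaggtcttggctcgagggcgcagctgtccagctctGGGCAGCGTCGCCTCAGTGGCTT

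Of these bases 71.6% were G or C, against a median of 52.4% over all 32851 RefSeq mouse promoters. 1700018A04Rik was at 12.1, 9.16 and 12.3 CPM in WT and 1.11, 5.51 and 8.12 CPM in Dlx2OE. Its groups did not overlap and the order of the Dlx2OE samples was that of Foxf2. Its log2 fold change was -1.19 with a standard error of 0.566 and did not pass (adjusted p 0.202 by edgeR).

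Similar values were found at other starts. Foxd2os, which begins 383 bp from Foxd2 on the other strand, was at 19.2, 11 and 13.5 CPM in WT and 1.15, 7.10 and 8.12 CPM in Dlx2OE (log2 fold change -1.42, adjusted p 0.156). Foxl2os, which overlaps the start of Foxl2 by 12 bp, was at 20, 6.04 and 12.1 CPM in WT and 27.4, 35.2 and 25.1 CPM in Dlx2OE (1.20, adjusted p 0.0865). In these 2 genes too the groups did not overlap, although neither passed the test. Fendrr, the non-coding transcript that starts 1275 bp from Foxf1, was at 22.8, 19.7 and 14.2 CPM in WT and 11.7, 20.3 and 15 CPM in Dlx2OE, with overlapping groups and a log2 fold change of -0.27 (standard error 0.242). Foxf1 itself had a log2 fold change of -1.17, and the difference between the pair was not tested.

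**Figure D4:**
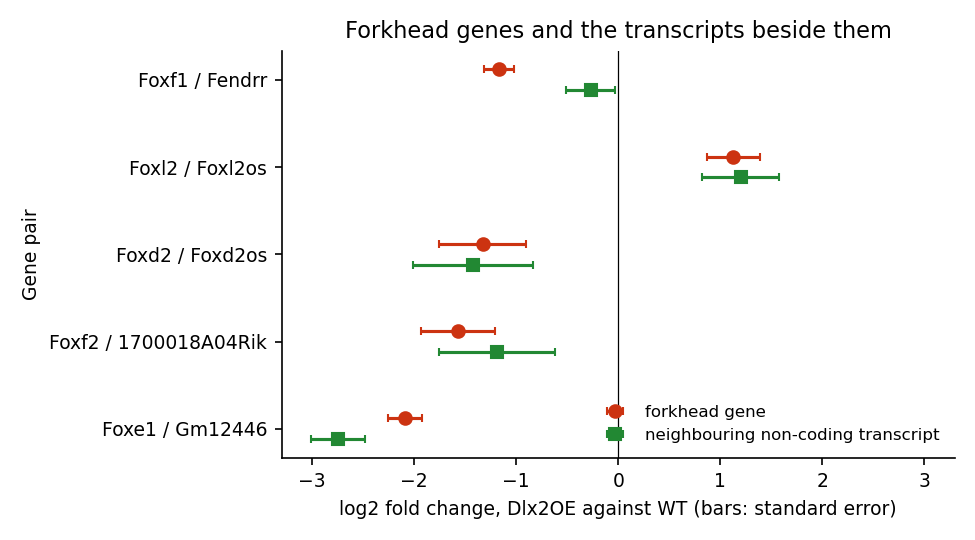
log2 fold change in Dlx2OE against WT (horizontal axis, bars for the standard error) of 5 forkhead genes (circles) and of the non-coding transcript beside each (squares). Foxl2 and Foxl2os were both above 0 at 1.13 and 1.20, Foxf1 was at -1.17 and Fendrr at -0.27, and of the non-coding transcripts Gm12446 alone passed the adjusted p.

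RefSeq promoter sequences were matched for 5 of the 9 genes: Foxf2, Foxc1, Foxd1, Foxd2 and Foxl2. The 250 bases before each RefSeq start were searched on both strands. The letters sought were a homeodomain core (TAATT), a GLI core (TGGGTGG) and a LEF/TCF core (CTTTGA). None of these letters occurred in any of the 5. Over all promoters of that length, TAATT occurred in 25%, TGGGTGG in 8.11% and CTTTGA in 13.8%. With 5 promoters and shares of this size, nothing is read from the absence. The 5 promoters were 57.2% to 71.6% G or C and held 12 to 29 CpG, where the median promoter held 6. The RefSeq start of Foxl2 lies 319 bp inside the GENCODE transcript, so its 250 bases lie within that transcript and not upstream of it.

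Outside the 9, 35 other forkhead genes were listed, of which 22 passed the filter on low counts. In the edgeR fit 5 passed the adjusted p, 3 higher and 2 lower, where 6.45% of all genes passed. Foxa1, a pioneer factor of endoderm-derived and other epithelia, fell from 18.7 ± 7.89 to 4.33 ± 1.93 CPM (log2 fold change -2.11, adjusted p 0.0327). Foxq1, which lies 64839 bp from Foxf2, fell from 5.71 ± 0.321 to 1.53 ± 1.04 CPM (-1.91, 0.0449), but 66.1% of its exons overlap another annotated gene. Foxn3, a broadly expressed repressor, rose from 82.5 ± 9.75 to 121 ± 4.81 CPM (0.55, 0.0318). After GC and length correction its log2 fold change was 0.32 and did not pass (adjusted p 0.0531 by edgeR).

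Foxi2 and Foxp3 rose from low levels. Foxi2, known from head ectoderm, was counted 1, 2 and 1 times in the WT samples against 43, 26 and 23 times in the Dlx2OE samples, below the floor of 3 counts in each WT sample. The ratio of the summed counts, after scaling for library size, was 23.6, with an exact 95% interval of 8.93 to 88.6 that covers counting error only (adjusted p 0.00844). Foxp3, the factor of regulatory T cells, was counted 6, 5 and 5 times in the WT samples against 14, 17 and 22 times in the Dlx2OE samples (log2 fold change 1.75, adjusted p 0.0447), and 31.5% of its exons overlap another gene. Of the 5, Foxi2 passed in all 6 leave-one-out fits, Foxa1, Foxq1 and Foxn3 in 2, and Foxp3 in 1.

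The 3 other forkhead genes with the highest WT level per length were Foxp4 (37.2 CPM per kb), Foxo4 (21.4) and Foxk2 (20.9), and the WT range of Foxp4, 31.5 to 44.9, overlapped that of Foxf2. Their log2 fold changes were -0.27, -0.10 and 0.31, and none passed. Foxd3, a gene of early neural crest, had a count of 0 in every sample, below a floor of 0.0955 to 0.111 CPM. The median log2 fold change of the 22 tested genes was 0.00.

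**Figure D5:**
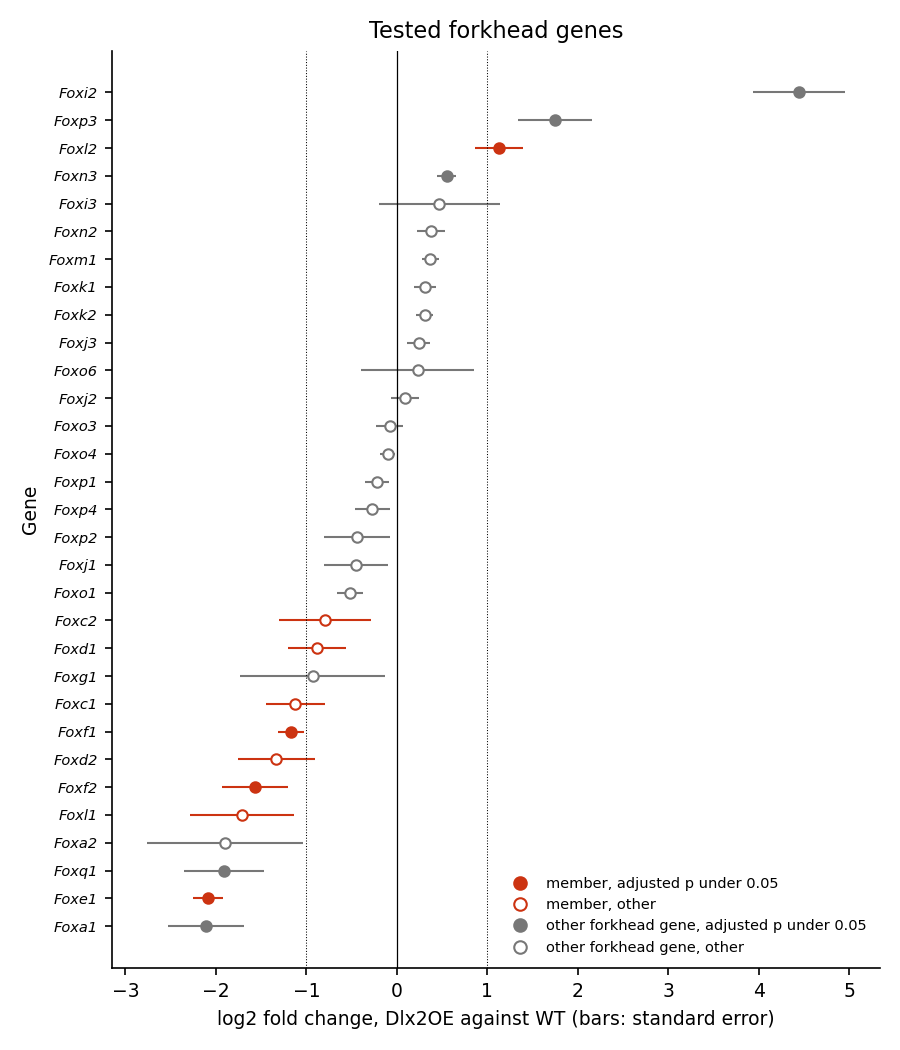
log2 fold change in Dlx2OE against WT (horizontal axis, bars for the standard error, dotted lines at 1 and -1) of the 31 tested forkhead genes, with the 9 genes of palate and face in red and filled symbols for an adjusted p under 0.05. Foxl2 at 1.13 is the red point above 0, and Foxi2, with 4 counts in all WT samples together, is the farthest from 0.

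Hedgehog pathway genes were listed because Foxf genes respond to this pathway. Of 15 genes, 14 were tested and 6 passed the adjusted p, 4 higher and 2 lower, where 6.45% of all genes passed. Shh, the epithelial ligand, fell from 16.8 ± 1.98 to 6.79 ± 1.97 CPM (log2 fold change -1.31, adjusted p 0.0228), and Hhip, a ligand-binding inhibitor, fell from 19.9 ± 4.43 to 8.93 ± 0.848 CPM (-1.15, 0.0192). The co-receptors Cdon (0.87, 0.0116) and Gas1 (0.86, 0.0352) and the transcription factors Gli2 (0.71, 0.0264) and Gli3 (0.60, 0.0356) rose. Ptch1 and Gli1, the receptor and the factor that are usual targets of the pathway, had log2 fold changes of -0.14 (adjusted p 0.564) and 0.14 (0.470). Without WT sample 2, none of the 6 passed.

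Of 18 palate regulators, all were tested and 5 passed the adjusted p, where 6.45% of all genes passed. Tbx22, whose human counterpart is linked to X-linked cleft palate, fell from 50.7 ± 11.2 to 21.4 ± 4.59 CPM (log2 fold change -1.24, adjusted p 0.0185). Pax9 (-1.10, 0.0141) and Tgfb3 (-0.79, 0.0332), both required for palate closure in mice, fell as well. Meox2 also fell (-1.67, 0.0359), and Tbx2 rose (0.87, 0.0134). Fgf18, a ligand on this list, was at 7.74 ± 2.00 CPM in WT and 4.78 ± 1.41 in Dlx2OE (-0.70, adjusted p 0.146) and did not pass. Osr2 and Shox2, factors of the palatal shelves, had log2 fold changes of -0.07 and -0.05 and did not pass. Without WT sample 2, none of the 5 passed.

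Genes with the most similar profile over the 6 samples were sought for the genes with the largest rise and fall, Foxl2 and Foxe1, among 13224 genes with a mean log2 CPM of at least 1, by the root mean square difference of centred log2 CPM. Nearest to Foxe1 were F3, the gene of tissue factor (difference 0.138 on the log2 scale), Itgbl1, an integrin beta-like protein (0.188), and the antisense transcript 2610016A17Rik (0.195). Their log2 fold changes were -2.30, -2.53 and -2.15. Nearest to Foxl2 were Hs3st3b1, a heparan sulfate sulfotransferase (0.142), and Ptar1 (0.220), with log2 fold changes of 1.08 and 0.95, and a gene with no GENCODE M21 symbol (0.229). Among the other 8 forkhead genes, the nearest to Foxe1 was Foxf2 at 0.480, and Foxl2 was at 1.72.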

How the data were processed

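RNA of 3 WT and 3 Dlx2OE samples was analysed, grouped by the titles in the labels. The authors removed adaptors, contamination and low-quality reads, mapped 150-base read pairs to mm10 with STAR 2.7.3a, counted them with htseq-count (HTSeq 0.12.4, union mode) and deposited raw counts per gene without normalization. The annotation release and the strand setting of the counting are not given in the sources used here. The 5 summary lines were left out of library sizes and tests; reads on no gene were 5.03% to 14.7%. Of 53801 identifiers, 53706 were named from GENCODE M21.

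Testing used the quasi-likelihood F test of edgeR 4.0.16 (R 4.3.3) with genotype as the only term, after filterByExpr with a minimum count of 10 and TMM scaling. Adjusted p-values are those of Benjamini and Hochberg over 17514 genes. Standard errors are those implied by the F statistic. CPM are scaled by TMM, and SDs cover 3 samples. The script was tested on simulated data. Samples were independent by the methods, but whether each came from 1 embryo is not stated, and p-values measure the spread between these samples. An exact permutation test of 3 against 3 cannot go below 0.1, and none was used.

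The members and lists were chosen with earlier results of these data known. Named were the 9 genes, other forkhead, Hedgehog and palate genes with an adjusted p under 0.05, the 3 other forkhead genes highest per length in WT, tested genes within 100 kb that passed or share a start, and nearest profiles; Ptch1, Gli1, Fgf18, Osr2, Shox2, Foxd3, Krt5 and the marker genes given with values were added after their values were seen. Alternatives were DESeq2 1.42.0, RLE factors, 2 other filters, a replicate block, GC and length correction by loess, removal of mitochondrial and haemoglobin genes, and leaving out each sample. Coding sequences were aligned with Biopython 1.88. Some results for a listed gene and for a sequence window are not reported here.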

Additional observations from a re-analysis of the deposited data

Results flagged for a closer look

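Reads that fell on no annotated gene, which no comparison above uses, took a larger share of the library in each Dlx2OE sample than in any WT sample. The share was 5.75%, 7.81% and 14.7% in Dlx2OE samples 1 to 3 and 5.03% to 5.43% in WT. The share was highest in sample 3, which was the highest Dlx2OE sample for 7 of the 9 forkhead genes. Whether this share bears on the forkhead counts was not tested.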

How the results depend on the processing

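Of 126 alternative values for the 9 forkhead genes, 100 kept their side of the threshold, 15 lost it, 11 gained it and none reversed. Foxe1 passed in all, and Foxf1 in all but 2. The counts moved more than the fold changes. DESeq2 called 445 genes higher and 440 lower, with 2417 at the adjusted p and 5 forkhead genes lower. With no filter on low counts these were 506, 497, 2044 and 6. With at least 10 counts in every sample, 3 other forkhead genes passed. GC and length correction called 0 forkhead genes higher and 2 lower.

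Leaving out 1 sample gave 39 to 642 genes higher, 35 to 531 lower, 79 to 2091 at the adjusted p, 0 to 1 forkhead genes higher and 1 to 4 lower, and 1 to 8 other forkhead, 0 to 7 Hedgehog and 0 to 6 palate genes passing. Without WT sample 2, each of these counts was at its lowest, alone or tied with other fits. Among the other named or neighbouring genes, Hemgn, a neighbour of Foxe1 that did not pass (log2 fold change 0.81), reversed to -0.14 without Dlx2OE sample 2 and was 1.46 without WT sample 1.

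Replicate numbers did not pair the samples: deviations of same-numbered samples correlated at -0.0718, -0.211 and 0.0731, and WT sample 1 was most like Dlx2OE sample 2 (0.345). With a replicate block, 202 genes were higher, 196 lower and 961 passed the adjusted p, 4 forkhead genes were lower and 1 higher, and 2 other forkhead, 5 Hedgehog and 5 palate genes passed. GC and length correction with the replicate block gave 50, 51 and 142 genes, 1 forkhead gene lower and 0 higher, and 1 other forkhead, 1 Hedgehog and 2 palate genes. The causes of these changes were not tested. Counts below 3 in a library cannot be told from 0 at this depth.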
